A study of Mus musculus with 34 samples.

Results

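The nuclear genes of respiratory complex I and of its assembly were followed over 3 diets in adipose tissue and heart of the mouse. The members are all genes whose symbol begins with Nduf in the deposited adipose or heart expression tables, without pseudogenes. They number 46 of the 15691 genes in those tables. Of these, 36 encode subunits of complex I and 8 encode assembly factors (Ndufaf1 to Ndufaf8). The other 2, Ndufa4 and Ndufa4l2, carry the family name, but Ndufa4 is a subunit of cytochrome c oxidase and Ndufa4l2 is its close relative. All 46 passed the filter on low counts in both tissues.

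RNA sequencing libraries were made from adipose tissue and heart of C57BL/6J mice aged 20 to 22 months. The HFCD+FMD mice received a high fat, high calorie diet (HFCD) with 60% of calories from fat, interrupted every 4 weeks by 5 days of a fasting mimicking diet (FMD). From cycle 6 on, 2 days of control diet followed each FMD, and tissue was taken 4 days after the end of cycle 11. The HFCD mice received the same fat-rich chow without FMD, and the CNTR mice a control diet with 10% of calories from fat. Adipose tissue was represented by 6 HFCD+FMD, 4 HFCD and 3 CNTR libraries, and heart by 4 HFCD+FMD, 5 HFCD and 5 CNTR libraries. The labels carry no genotype other than the strain and do not name the adipose depot. The design names 18 mice for 34 labelled libraries, so some mice gave both tissues, and no label ties a library to an animal. What the tests measure is thus the scatter of libraries, part of which may be technical.

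Complex I is the entry point of electrons from NADH into the respiratory chain of the inner mitochondrial membrane. Its matrix arm holds the N module, which oxidizes NADH, and the Q module, which passes the electrons through iron-sulfur clusters to ubiquinone, and its membrane arm pumps protons. Core subunits of the membrane arm are encoded by mitochondrial DNA, so the complex needs products of both genomes, and dedicated assembly factors join the modules. Heart muscle depends on this chain for nearly all of its ATP, whereas white fat cells hold few mitochondria and brown or beige fat cells hold many.

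The 36 subunit genes were placed by the known structure of the mammalian enzyme. The N module held 3 core subunits (Ndufv1, Ndufv2, Ndufs1) and 7 accessory subunits, and the Q module core subunits, among them Ndufs3, Ndufs7 and Ndufs8, and 2 accessory subunits (Ndufa5, Ndufa9). The membrane arm held 9 accessory subunits in its proximal part and 11 in its distal part. The genes are spread over the genome. For example, on GRCm38 Ndufs6 lies at chr13:73319838-73328542, Ndufa5 at chr6:24518666-24528013 and Ndufb10 at chr17:24722060-24724478, all on the minus strand. The principal transcripts of the members were short, with a median of 977 bases (range 419 to 4371), and 76.1% were under 1500 bases, against 18.1% of all genes.

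Promoter windows of 300 bases, from 250 before to 50 after the annotated start, were taken from RefSeq annotation of GRCm38.p6 and matched 40 of the 46 members. Each was searched on both strands for 4 motifs of factors known for nuclear genes of oxidative phosphorylation. The motifs and the printed windows were chosen after the expression values had been seen, and a match is a description of letters only. The NRF1 motif (GCGC, any base, then TGCGC) occurred in 9 of 40 members (22.5%), among them Ndufa5 and Ndufs6, against 5.19% of 27025 genes. The YY1 motif AAGATGGCG occurred in 6 of 40 members, against 1.64% of all genes. The ETS motif CCGGAAG occurred in 6 of 40 members and 9.93% of all genes, and the ERR motif AAGGTCA in 3 of 40 members and 5.38% of all genes. These shares were not tested, and 20 of the 40 members held none of the 4 motifs.

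Shown next are the windows of Ndufs6, with the lowest fold change in HFCD adipose tissue, of Ndufa5, whose fall was close to it, and of Ndufb10, with the smallest p-value there. Each is given in the direction of the gene, on the minus strand of GRCm38.p6, and capitals mark motif matches. Ndufs6 (chr13:73328433-73328732) held an NRF1 match before and a YY1 match after its annotated start. Ndufa5 (chr6:24527477-24527776, the downstream of its 2 annotated starts) held an NRF1 match in the opposite orientation, and Ndufb10 (chr17:24724374-24724673) held none of the 4.
Ndufs6: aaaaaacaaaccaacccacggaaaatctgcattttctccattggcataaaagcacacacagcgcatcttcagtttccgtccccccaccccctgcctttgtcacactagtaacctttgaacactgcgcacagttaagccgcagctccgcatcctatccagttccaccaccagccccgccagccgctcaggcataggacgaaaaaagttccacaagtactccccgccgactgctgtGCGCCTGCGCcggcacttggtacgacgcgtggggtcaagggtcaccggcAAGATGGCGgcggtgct
Ndufa5: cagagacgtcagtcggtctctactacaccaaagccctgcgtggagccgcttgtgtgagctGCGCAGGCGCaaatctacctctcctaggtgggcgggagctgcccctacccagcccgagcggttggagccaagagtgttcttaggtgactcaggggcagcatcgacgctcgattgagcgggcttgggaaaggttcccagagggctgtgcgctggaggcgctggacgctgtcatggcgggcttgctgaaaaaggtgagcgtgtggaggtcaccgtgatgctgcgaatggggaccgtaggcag
Ndufb10: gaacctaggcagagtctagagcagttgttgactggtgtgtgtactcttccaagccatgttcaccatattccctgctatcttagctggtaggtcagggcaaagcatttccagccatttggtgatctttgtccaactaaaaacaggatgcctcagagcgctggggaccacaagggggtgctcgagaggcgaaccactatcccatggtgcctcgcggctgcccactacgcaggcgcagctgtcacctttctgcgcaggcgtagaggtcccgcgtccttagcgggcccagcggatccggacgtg

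Levels are given as CPM, read counts relative to a library size scaled by a trimmed mean (TMM), and between genes as CPM per kilobase of transcript. In CNTR heart the 36 subunit genes had a median level of 214 CPM per kb, and the 8 assembly factors a median of 13.2 CPM per kb. In CNTR adipose tissue the medians were 84.0 CPM per kb for subunits (range 4.73 to 235.9) and 8.39 CPM per kb for assembly factors. Assembly factors, which act on the complex without staying in it, thus had the lower median in both tissues. The ratio of the heart level to the adipose level had a median of 2.23 over the subunits (range 0.707 to 4.11), and 35 of 36 ratios were above 1. The ratio was highest for Ndufv1, the subunit that binds NADH and FMN, and lowest among subunits for Ndufb3 of the distal membrane arm. Ndufaf2, an assembly factor related in sequence to Ndufa12, was lower in heart, with a ratio of 0.631. The rank order of the levels was similar in both tissues (Spearman rho 0.888 across 46 genes, which share libraries and are not independent). Ndufa4 led both, at 654 CPM per kb in heart and 250.3 CPM per kb in adipose tissue. Ndufb10 and Ndufb9, distal membrane arm subunits, were also high in both, at 501 and 471.5 CPM per kb in heart and 216 and 235.9 CPM per kb in adipose tissue. Without heart CNTR replicate 2 and adipose CNTR replicate 1, which stood apart, the subunit medians were 189 CPM per kb in heart and 70.9 CPM per kb in adipose tissue, and the median ratio was 2.14 (range 0.768 to 4.53), with 35 of 36 above 1. The 2 tissues were fitted separately and each scaled within itself, so these ratios were not tested.

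Total counts ran between 15604982 and 40831656 in adipose libraries and between 16848195 and 47859170 in heart libraries. The tissue labels matched marker genes, with a summed adipocyte marker level of 18890 to 51460 CPM in adipose tissue and 461 to 1104 CPM in heart, and a ventricular muscle marker sum of 26180 to 58970 CPM in heart and 2.35 to 124 CPM in adipose tissue. Some libraries stood apart. Adipose CNTR replicate 1 had the fewest counts of its tissue, 29.3% mitochondrially encoded reads and a beige and brown adipocyte marker sum of 297 CPM, against 13.4 to 29.2 CPM in all other adipose libraries. Heart CNTR replicate 2 deviated upwards for short transcripts, by 0.76 on the log2 scale at the median for those under 750 bases, and downwards by 0.41 for those of 4000 bases and over. Heart HFCD replicates 3 and 5 had atrial marker sums of 676 and 2134 CPM, against at most 124.5 CPM in every other heart library. The deposited heart values had lost a term per gene shared within 3 sets of libraries, whose meaning the labels do not give, and these sets were kept as a factor in the heart fit. Heart CPM hold no term for the set, so diets that do not overlap in CPM may differ by set as well. Counts, medians and list results that rest on 1 of these libraries are also given without it, except for medians by transcript length.

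In adipose tissue the nuclear genes of complex I were lower in HFCD mice than in CNTR mice. Log2 fold changes are of the diet named first over the diet named after it. At an adjusted p under 0.05 (edgeR quasi-likelihood test, Benjamini-Hochberg over 15112 genes), 31 of 46 members fell and 1 rose, against 14.2% of all genes lower and 15.7% higher. The median log2 fold change of the members was −0.67, against a median of −0.001 over all genes, and 45 of 46 were below 0, as were 50.1% of all genes. For 30 members every HFCD library lay below every CNTR library, which was so for 18.9% of all genes. Of the 36 subunits 27 fell, and none rose. In a bulk sample, fewer cells of a type and less RNA per cell cannot be told apart.

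**Figure D1:**
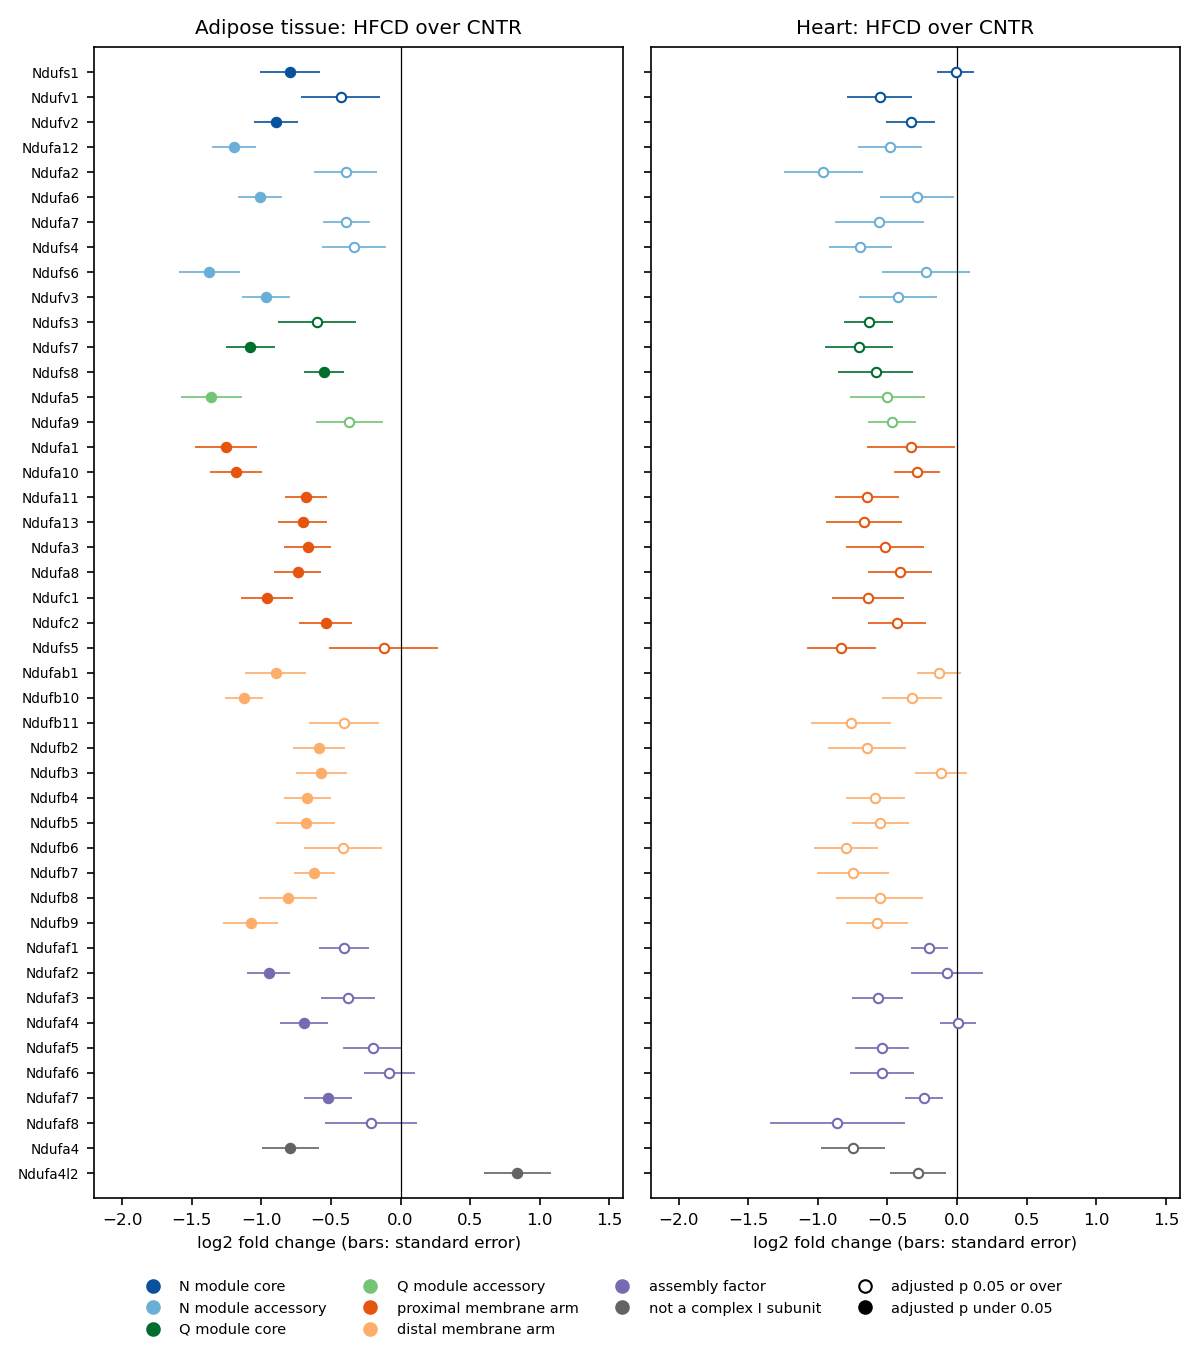
Log2 fold change of HFCD over CNTR (x axis) for 45 of the 46 members (points, with SE bars), in adipose tissue on the left and heart on the right, coloured by module, with filled points where the adjusted p is under 0.05. The adipose values run between −1.37 for Ndufs6 and 0.84 for Ndufa4l2, the only adipose point above 0, and no heart point is filled.

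Within the N module, which takes electrons from NADH, 2 of 3 core and 4 of 7 accessory subunits fell. Ndufs6, a zinc-binding accessory subunit, had 24.03, 22.7, 30.95 and 34.8 CPM in the HFCD libraries, against 99.4, 64.1 and 55.4 CPM in the CNTR libraries. The diets did not overlap, and Ndufs6 had the lowest log2 fold change of all members, −1.37 ± 0.22 (SE, edgeR adjusted p = 0.00162). Ndufs6 has a pseudogene copy that matches 61.3% of its transcript at 95% identity or more, so its counts may hold or lose reads of that copy. Ndufa12, an accessory subunit at the junction of N and Q modules, had 20.9, 16.98, 20.2 and 21.9 CPM in HFCD libraries, against 56.25, 44.01 and 37.4 CPM in CNTR libraries (log2 fold change −1.19, edgeR adjusted p = 0.000683). The HFCD libraries lay close together and the lowest CNTR library was well above them. The accessory subunits Ndufa6 and Ndufv3 also fell, by 1.01 and 0.97 on the log2 scale (edgeR adjusted p = 0.0015 and 0.00269).

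Of the core subunits of the N module, Ndufv2 and Ndufs1 fell and Ndufv1 did not pass. Ndufv2, which carries an iron-sulfur cluster next to the NADH site, had 89.8, 85.1, 80.4 and 82.9 CPM in HFCD libraries, against 210, 138.5 and 123 CPM in CNTR libraries, with a log2 fold change of −0.89 ± 0.16 (SE, edgeR adjusted p = 0.00265). Ndufs1, the largest iron-sulfur subunit, averaged 104 ± 24.5 CPM in HFCD and 180 ± 50.05 CPM in CNTR libraries (SD, n = 4 and 3) and fell by 0.79 (edgeR adjusted p = 0.0168), although its highest HFCD library, at 134 CPM, passed the lowest CNTR library, at 132 CPM. Ndufv1, the NADH-binding subunit, had 126, 121, 72.4 and 66.9 CPM in HFCD libraries, against 163, 127 and 100.1 CPM in CNTR libraries (log2 fold change −0.43, edgeR adjusted p = 0.266). HFCD replicates 1 and 2 overlapped the CNTR range for Ndufv1 and replicates 3 and 4 lay below it.

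In the Q module, where ubiquinone is reduced, the core subunits Ndufs7 and Ndufs8 fell. Ndufs7, which carries the last iron-sulfur cluster before ubiquinone, had 38.3, 38.7, 42.2 and 37.6 CPM in HFCD libraries, against 115, 75.0 and 58.9 CPM in CNTR libraries. Every HFCD library was below every CNTR library, and the log2 fold change was −1.08 ± 0.18 (SE, edgeR adjusted p = 0.00184). Ndufs8, a carrier of iron-sulfur clusters, fell by 0.55 (edgeR adjusted p = 0.0139). Ndufs3, a core subunit whose transcript is matched over 84.1% of its length by transcripts of 2 other genes at 95% identity or more, had a log2 fold change of −0.60 and did not pass (edgeR adjusted p = 0.12). The accessory subunit Ndufa5 had 33.2, 26.6, 34.85 and 36.9 CPM in HFCD libraries, against 121, 71.35 and 61.5 CPM in CNTR libraries. This was the second lowest log2 fold change, −1.36 ± 0.22 (SE, edgeR adjusted p = 0.00176), and no near-identical copy was found for Ndufa5. Ndufa9, which holds a bound nucleotide beside the ubiquinone site, did not pass (−0.37, edgeR adjusted p = 0.259).

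The membrane arm, which carries the proton channels, had 8 of 9 members lower in its proximal and 9 of 11 in its distal part (5 of 9 and 2 of 11 without CNTR replicate 1). Ndufb10, a distal subunit, had 73.5, 65.6, 75.9 and 74.4 CPM in HFCD libraries, against 192, 155 and 128 CPM in CNTR libraries. Its HFCD libraries were tight and far below the CNTR libraries, which gave the smallest p-value of the members (log2 fold change −1.13 ± 0.14 SE, edgeR adjusted p = 0.000461). The distal subunit Ndufb9 averaged 78.6 ± 10.1 CPM in HFCD and 166 ± 49.4 CPM in CNTR libraries (SD, n = 4 and 3). It fell by 1.08 on the log2 scale (edgeR adjusted p = 0.00286). In the proximal arm, Ndufa1, a small subunit encoded on the X chromosome, had 32.3, 30.5, 27.7 and 28.6 CPM in HFCD libraries, against 109, 57.6 and 46.5 CPM in CNTR libraries (−1.25, edgeR adjusted p = 0.00253). Ndufa10, a subunit related to nucleoside kinases, averaged 119 ± 7.05 CPM in HFCD and 269 ± 79.1 CPM in CNTR libraries (SD, n = 4 and 3; −1.18, edgeR adjusted p = 0.00163). Ndufs5 of the proximal arm and Ndufb6 and Ndufb11 of the distal arm stayed short of the threshold (−0.12, −0.42 and −0.41).

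**Figure D2:**
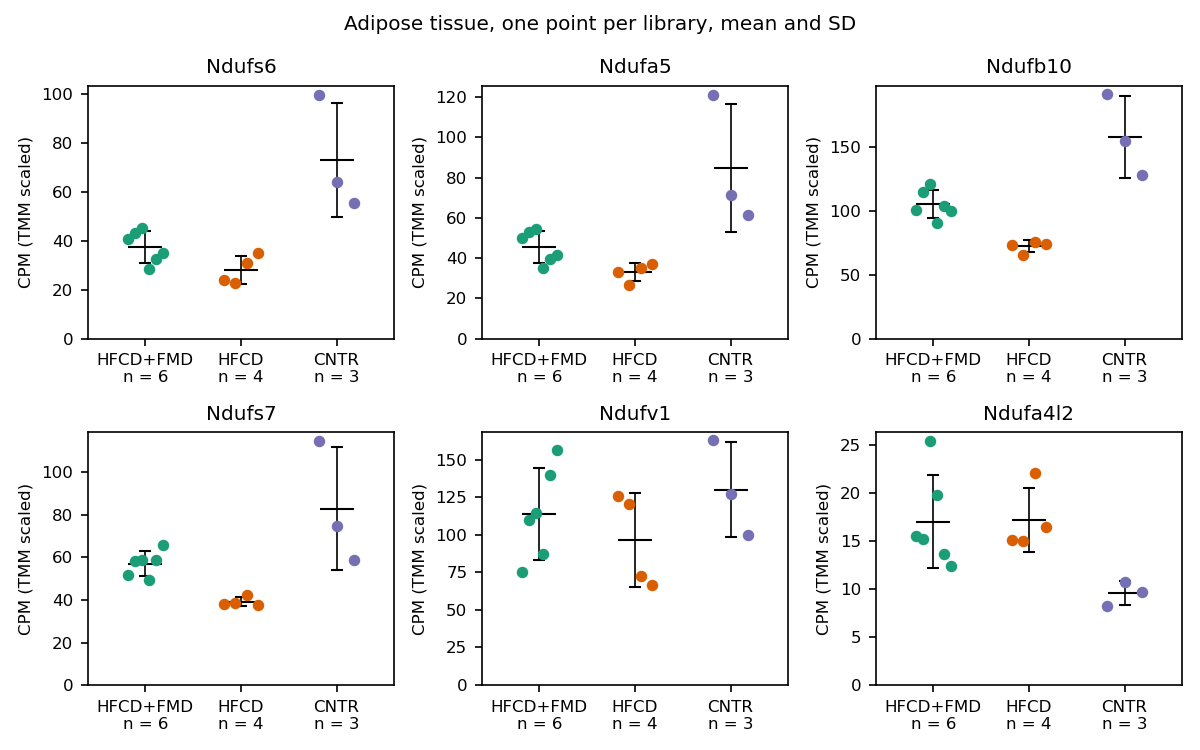
CPM of 6 members in each adipose library (points) by diet, with the mean and SD of each diet as bars. HFCD libraries lie below all CNTR libraries for Ndufs6, Ndufa5, Ndufb10 and Ndufs7, overlap them for Ndufv1 and lie above them for Ndufa4l2.

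Of the 8 assembly factors 3 fell. Ndufaf2, a chaperone of late assembly, had 7.35, 9.09, 10.2 and 11.05 CPM in HFCD libraries, against 20.7, 17.7 and 16.1 CPM in CNTR libraries, with no overlap (log2 fold change −0.95, edgeR adjusted p = 0.00173). Ndufaf4, a Q module assembly factor, fell by 0.69 (edgeR adjusted p = 0.0107) and Ndufaf7, a mitochondrial methyltransferase, by 0.52 (edgeR adjusted p = 0.0345). The other 5 factors had log2 fold changes between −0.40 for Ndufaf1 and −0.08 for Ndufaf6. Both genes outside the complex passed the test, in opposite directions. Ndufa4 had 103, 98.4, 73.0 and 78.2 CPM in HFCD libraries, against 197.5, 142 and 119 CPM in CNTR libraries (−0.79, edgeR adjusted p = 0.0127).

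Ndufa4l2, known as a gene induced by hypoxia in cultured cells, was the only member that rose. It had 15.12, 14.96, 22.1 and 16.45 CPM in HFCD libraries, against 8.23, 10.8 and 9.67 CPM in CNTR libraries. All 4 HFCD libraries were above all 3 CNTR libraries, which was so for 20.6% of all genes, with a log2 fold change of 0.84 ± 0.24 (SE, edgeR adjusted p = 0.02). Without CNTR replicate 1 or without HFCD replicate 3 the rise no longer passed (highest edgeR adjusted p = 0.0791).

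The genes around the members were read from lists of the pathway. Of 7 mitochondrially encoded complex I subunits, 5 could be tested (mt-Nd1, mt-Nd2, mt-Nd4, mt-Nd5 and mt-Nd6), and all 5 fell, with log2 fold changes between −2.31 and −3.04. Their summed level was 10050 to 35000 CPM in HFCD libraries, against 79770 to 237000 CPM in CNTR libraries. Among other complex I assembly factors, 5 of 12 fell and none rose, among them Tmem70 (−0.69) and Aifm1 (−0.76). In complex II, the succinate dehydrogenase, Sdhb (−0.80) and Sdha (−0.74) of 4 genes fell. Of 7 other genes that feed electrons to the chain 2 fell, Gpd2 (−2.02), the mitochondrial glycerol phosphate dehydrogenase, and Suox (−1.31), sulfite oxidase. Of 9 transcriptional regulators of these genes only Ppargc1a, a coactivator of mitochondrial genes, passed the test (−1.44 ± 0.47 SE, edgeR adjusted p = 0.036), while Nrf1 (0.19), Yy1 (−0.05) and Esrra (0.32) did not. Without CNTR replicate 1 all 5 mitochondrially encoded subunits still fell (−1.99 to −2.39), as did Gpd2 (−1.75), Suox (−1.14) and 3 of the 12 other assembly factors, Tmem70 (−0.53), Aifm1 (−0.60) and Timmdc1 (−0.46). Sdhb (−0.63), Sdha (−0.53) and Ppargc1a (−0.30, edgeR adjusted p = 0.504) did not pass without that library.

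Other cell types moved with the same contrast. All 8 macrophage markers were higher, with a summed level of 2174 to 4122 CPM in HFCD and 226 to 1080 CPM in CNTR libraries, and 4 of 8 adipocyte markers were lower, with sums of 21310 to 25140 CPM in HFCD and 30240 to 51460 CPM in CNTR libraries. Of 7 brown and beige adipocyte markers 3 were lower, with sums of 13.4 to 29.2 CPM in HFCD libraries, against 297, 27.5 and 14.35 CPM in CNTR libraries. Of 6 mesothelial markers 5 were lower (median −2.10), with sums of 22.2 to 117 CPM in HFCD and 186 to 418 CPM in CNTR libraries. Of 6 fibroblast markers 4 were higher (median 1.07), with sums of 4785 to 9232 CPM in HFCD and 3050 to 5755 CPM in CNTR libraries. Of 8 B and T lymphocyte markers 2 were lower, and of 6 endothelial markers 1 was higher. Without CNTR replicate 1 the calls were 4 macrophage and 1 fibroblast marker higher, and 2 mesothelial, 1 adipocyte, 1 lymphocyte and 0 brown and beige markers lower. The part of these cell types in the members' fall was not tested. Without CNTR replicate 1, which had the highest member sum, 15 members fell (6.83% of all genes did) and none rose (8.68% of all genes), and the median was −0.45. Of these 15, 14 were subunits and 1 an assembly factor. The 15 members called in every fit that left out a library were Ndufa1, Ndufa5, Ndufa6, Ndufa8, Ndufa10, Ndufa11, Ndufa12, Ndufaf2, Ndufb9, Ndufb10, Ndufc1, Ndufs6, Ndufs7, Ndufv2 and Ndufv3.

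**Figure D3:**
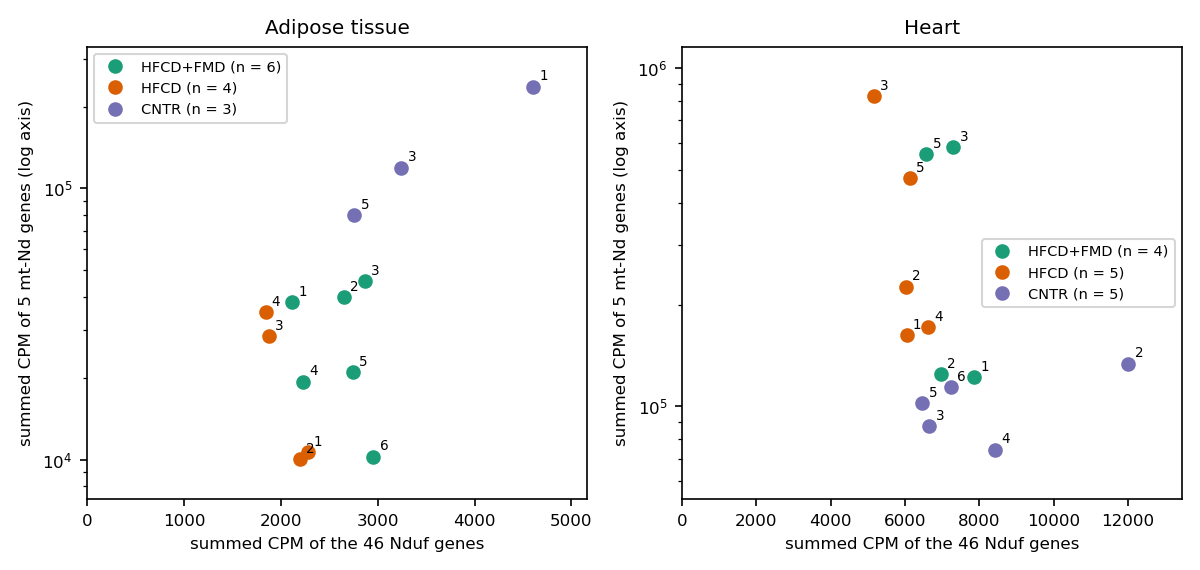
Summed CPM of the 46 members (x axis) against summed CPM of the 5 mitochondrially encoded subunits (y axis, log scale) in each library, coloured by diet and numbered by replicate, for adipose tissue and heart. The HFCD adipose libraries stay between 1842 and 2277 CPM on the x axis and CNTR replicate 1 reaches 4608 CPM, and heart CNTR replicate 2 stands alone at 12010 CPM.

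Across the adipose libraries the members summed to 2114 to 2954 CPM in HFCD+FMD mice, 1842 to 2277 CPM in HFCD mice and 2760, 3245 and 4608 CPM in CNTR mice. HFCD+FMD replicates 1 and 4 were lowest of their diet, at 2114 and 2228 CPM, inside the HFCD range. The HFCD libraries split by gene. Ndufv1 was higher in HFCD replicates 1 and 2 than in replicates 3 and 4, whereas Ndufs6 was lower in replicates 1 and 2. The mitochondrially encoded sum was also lower in replicates 1 and 2 (10720 and 10050 CPM) than in replicates 3 and 4 (28650 and 35000 CPM).

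Adding FMD cycles to the fat-rich diet gave no member past the threshold in adipose tissue. Set against HFCD, 0 of 46 members passed with edgeR (0.205% of all genes did), 17 had an unadjusted p under 0.05 (11.2% of all genes), and 44 of 46 log2 fold changes were above 0 (52.1% of all genes). Their median was 0.27, against 0.01 over all genes. DESeq2 called 4 members higher (Ndufa12, Ndufab1, Ndufb10 and Ndufv3), and voom with quality weights called these and Ndufs7. Of all genes DESeq2 called 0.769% higher and voom 0.754%. Ndufb10 had 90.8 to 121 CPM (median 102) in HFCD+FMD libraries, against 65.6 to 75.9 CPM in HFCD libraries (log2 fold change 0.54 ± 0.12 SE, edgeR adjusted p = 0.112). All 6 HFCD+FMD libraries were above all 4 HFCD libraries for Ndufb10, as they were for Ndufa6, Ndufa12, Ndufs7, Ndufv2 and Ndufv3, 6 members in all, against 1.39% of all genes.

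By role, 17 of 36 subunits and 0 of 8 assembly factors had an unadjusted p under 0.05 in this contrast, as did 11.2% of all genes. The difference between the roles was not tested. Ndufa12 averaged 29.5 ± 4.16 CPM in HFCD+FMD and 20.0 ± 2.14 CPM in HFCD libraries (SD, n = 6 and 4; log2 fold change 0.56, edgeR adjusted p = 0.152). Ndufab1, the mitochondrial acyl carrier protein that is also a subunit, had the highest log2 fold change, 0.69 (edgeR adjusted p = 0.188), but its lowest HFCD+FMD library, at 21.8 CPM, overlapped the highest HFCD library, at 22.1 CPM. For Ndufv3 the log2 fold change was 0.54 (edgeR adjusted p = 0.203). The core subunits ran between 0.21 for Ndufs3 and 0.54 for Ndufs7, with 0.24 for Ndufv1, 0.44 for Ndufv2, 0.46 for Ndufs1 and 0.29 for Ndufs8. The assembly factors had a median of 0.26 and the subunits one of 0.30. Ndufb3 (−0.03) and Ndufa4l2 (−0.01) were the only members below 0, and Ndufa4 was at 0.27. The 5 mitochondrially encoded subunits had log2 fold changes of 0.35 to 0.54, none of which passed, and the macrophage marker sum was 843 to 3233 CPM in HFCD+FMD and 2174 to 4122 CPM in HFCD libraries.

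Set against CNTR, 15 members fell and 1 rose in HFCD+FMD adipose tissue, against 9.25% of all genes lower and 10.5% higher, and the median of the members was −0.36. This contrast shares its CNTR libraries with HFCD against CNTR and its HFCD+FMD libraries with HFCD+FMD against HFCD, so the values stand side by side without a further comparison. Ndufa1 had 24.96 to 35.0 CPM (median 31.5) in HFCD+FMD libraries, against 109, 57.6 and 46.5 CPM in CNTR libraries. All 6 HFCD+FMD libraries lay below the CNTR libraries, and the log2 fold change of −1.19 ± 0.20 (SE, edgeR adjusted p = 0.00385) was close to that of HFCD against CNTR, −1.25. Ndufs6 had 28.6 to 45.3 CPM (median 37.9) in HFCD+FMD libraries, below all CNTR libraries (−0.95, edgeR adjusted p = 0.00878), where the HFCD value was −1.37. Ndufa5 (−0.89), Ndufa10 (−0.75), Ndufaf2 (−0.68), Ndufa6 (−0.66), Ndufa12 (−0.64), Ndufb9 (−0.63), Ndufb3 (−0.60), Ndufb10 (−0.59) and Ndufb4 (−0.56) also fell with all 6 libraries below CNTR, 11 members in all, against 10.5% of all genes.

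Among the core subunits only Ndufv2 (−0.46, edgeR adjusted p = 0.0449) and Ndufs7 (−0.53, edgeR adjusted p = 0.0371) passed in HFCD+FMD against CNTR, both with overlapping libraries. Ndufs3 (−0.40), Ndufs1 (−0.33), Ndufs8 (−0.26) and Ndufv1 (−0.19) did not, nor did Ndufa4 (−0.52). Ndufa8 (−0.59) and Ndufc1 (−0.53), subunits of the proximal arm, made up the 15. Ndufa4l2 again rose, with 12.4 to 25.4 CPM (median 15.4) in HFCD+FMD libraries, all above the CNTR libraries (0.82, edgeR adjusted p = 0.0246). Ndufa1 was the only member called in every fit that left out a library, and without CNTR replicate 1 it was the only member called (1.92% of all genes were called lower), with a median of −0.13 over the members. Without CNTR replicate 3, 10 members fell (4.07% of all genes). The 5 mitochondrially encoded subunits fell here too, by 1.77 to 2.69, and 2 of them passed without CNTR replicate 1. Markers of other cell types also moved with this contrast. Of 8 macrophage markers 4 were higher (median 2.09), with sums of 843 to 3233 CPM in HFCD+FMD and 226 to 1080 CPM in CNTR libraries. Also higher were 4 of 6 fibroblast and 3 of 6 endothelial markers, and lower were 2 of 8 adipocyte and 2 of 7 brown and beige markers. Without CNTR replicate 1 only 1 marker of these lists was called, an endothelial one. Their part in the members' values was not tested.

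**Figure D4:**
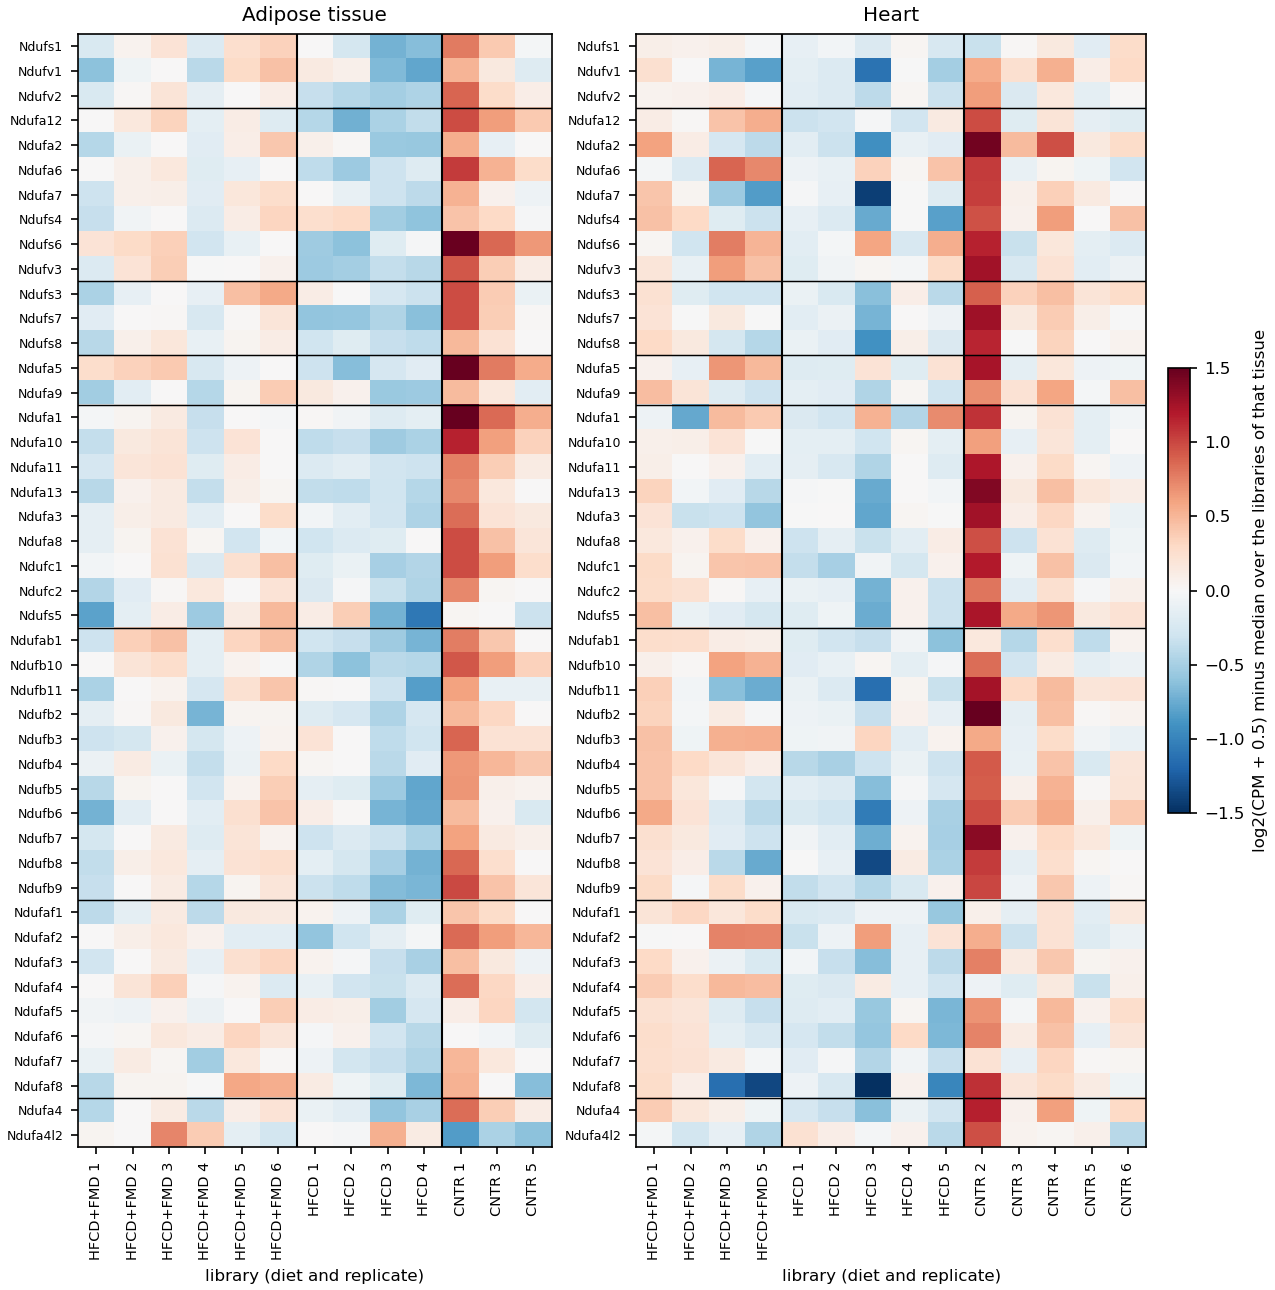
Heat map of log2(CPM + 0.5) of 45 members (rows, by module) in each library (columns, by tissue and diet), minus the median of that member over the libraries of the tissue. Adipose CNTR replicate 1 and heart CNTR replicate 2 are above the median for 44 of all 46 members each, heart CNTR replicate 4 for all 46, and adipose HFCD replicates 3 and 4 for 1 member each.

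In heart no member passed the test in any comparison. In HFCD against CNTR, 0 of 46 passed with edgeR, as did 0 of all 13230 genes (0%), and 22 members had an unadjusted p under 0.05 (12.8% of all genes). DESeq2 and voom with quality weights called none of the members either. The median log2 fold change of the members was −0.54, against 0.01 over all genes, and 45 of 46 were below 0 (49.4% of all genes). For 12 members all 5 HFCD libraries were below all 5 CNTR libraries, against 3.98% of all genes. The median was −0.17 without CNTR replicate 2, −0.17 with the trend over transcript length removed from each library and −0.61 within library set A, which holds 4 HFCD and 3 CNTR libraries including CNTR replicate 2. Leaving out an HFCD library with a high atrial marker sum gave medians of −0.46 (replicate 3) and −0.61 (replicate 5). The ventricular muscle markers moved with this contrast, with a summed level of 26180 to 36840 CPM in HFCD hearts, against 37120 to 58970 CPM in CNTR hearts, without overlap. Their median log2 fold change was −0.59 with 6 of 7 below 0 and none past the threshold, and −0.29 without CNTR replicate 2. Their part in the members' values was not tested.

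The members with the smallest p-values in this contrast came from several modules. Ndufs3, a core subunit of the Q module, had 23.2, 21.2, 15.95, 26.7 and 18.7 CPM in HFCD hearts, against 46.6, 31.8, 34.3, 28.6 and 30.2 CPM in CNTR hearts. The diets did not overlap, but the log2 fold change of −0.64 ± 0.18 did not pass (SE, edgeR adjusted p = 0.367). Ndufa2, an accessory subunit of the N module, had the lowest value, −0.96, with 41.4, 37.1, 24.2, 42.8 and 41.1 CPM in HFCD hearts, against 127, 64.5, 91.3, 51.5 and 56.3 CPM in CNTR hearts (edgeR adjusted p = 0.367). Ndufb6 (−0.80), Ndufs5 (−0.83) and Ndufa4 (−0.75) had the same adjusted p. The other core subunits ran between −0.70 for Ndufs7 and −0.01 for Ndufs1, with −0.58 for Ndufs8, −0.56 for Ndufv1 and −0.33 for Ndufv2. Ndufa4l2 was at −0.28, and Ndufaf4 was the only member above 0, at 0.01.

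The mitochondrially encoded subunits had the opposite sign in heart. Their summed level was 162100 to 824400 CPM in HFCD hearts, against 74490 to 133700 CPM in CNTR hearts, without overlap, and the log2 fold changes of the 5 genes ran between 0.20 and 2.09, none past the threshold (smallest edgeR adjusted p = 0.367, for mt-Nd5). The range was −0.25 to 1.26 without HFCD replicate 3, 0.22 to 2.30 without HFCD replicate 5 and 0.82 to 1.88 without CNTR replicate 2. The scaled library size can be smaller than the total, so these sums are not shares. As a share of all counts, mitochondrially encoded genes took 36.4% to 71.5% in HFCD hearts and 21.8% to 32.6% in CNTR hearts. HFCD replicate 3, with the highest share, had the lowest member sum of the heart libraries, 5152 CPM.

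Hearts of HFCD+FMD mice had member sums of 7866, 6970, 7302 and 6575 CPM, against 6046, 6029, 5152, 6608 and 6126 CPM in HFCD hearts and 12010, 6655, 8420, 6465 and 7226 CPM in CNTR hearts. In HFCD+FMD against HFCD no member passed with edgeR (0.106% of all genes did), 6 had an unadjusted p under 0.05 (11.0% of all genes), and 45 of 46 were above 0 (50.3% of all genes), with a median of 0.38. In this fit only HFCD+FMD replicate 1 and HFCD replicate 5 connect HFCD+FMD with the other diets across library sets. CPM hold no set term, so a lack of overlap between HFCD+FMD hearts and another diet cannot be told apart from a set difference. Within set C, with 3 HFCD+FMD libraries and 1 HFCD library, the median was 0.22, and without HFCD replicate 3 or 5 it was 0.38 or 0.59. Assembly factors led by p, with a median log2 fold change of 0.50 against 0.34 for the subunits. Without HFCD replicate 5 these medians were 0.30 and 0.64, so the higher median of the assembly factors rested on that library. Ndufaf1, which helps to build the membrane arm, had 42.5, 46.35, 42.03 and 44.95 CPM in HFCD+FMD hearts, against 31.6, 32.2, 35.3, 35.35 and 24.9 CPM in HFCD hearts. The diets did not overlap (0.54 ± 0.18 SE, edgeR adjusted p = 0.241), and without HFCD replicate 5 the value was 0.08 (edgeR adjusted p = 0.976). Without HFCD+FMD replicate 1 it was 0.84 (edgeR adjusted p = 0.0343; 2.78% of all genes were called). In that fit the remaining HFCD+FMD hearts share a library set with HFCD replicate 5 alone, so the value rests on 1 HFCD library, assumed to vary like the others, with the atrial marker sum of 2134 CPM. Ventricular marker sums were 43360 to 49250 CPM in HFCD+FMD hearts, against 26180 to 36840 CPM in HFCD hearts, without overlap, and all 7 log2 fold changes were above 0 (median 0.33, none past the threshold). The atrial marker sums were 9.96 to 25.5 CPM in HFCD+FMD hearts. In HFCD hearts they were 676 and 2134 CPM in replicates 3 and 5 and 30.1, 17.2 and 5.92 CPM in replicates 1, 2 and 4. The median log2 fold change of the atrial markers was −8.68, with none past the threshold. Without HFCD replicate 5 it was −4.23 over the 3 atrial markers then tested, and 5 of 7 ventricular markers were above 0 (median 0.44). Of 8 adipocyte markers 2 were lower (median −3.20), with sums of 572 to 672 CPM in HFCD+FMD and 711 to 1104 CPM in HFCD hearts. Without HFCD replicate 5 none of the adipocyte markers passed, and their median was −0.27. The part of these markers in the members' values was not tested.

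Ndufaf4 had 75.6, 69.5, 81.65 and 79.7 CPM in HFCD+FMD hearts, 51.0, 49.8, 63.2, 52.9 and 47.2 CPM in HFCD hearts and 54.9, 51.05, 64.0, 45.9 and 61.0 CPM in CNTR hearts. The HFCD+FMD hearts were above all others for this Q module assembly factor (4.76% of all genes had them above all CNTR hearts), with log2 fold changes of 0.50 against HFCD (edgeR adjusted p = 0.271) and 0.51 against CNTR (edgeR adjusted p = 0.358). It was the only one of the 46 members with an unadjusted p under 0.05 against CNTR, where 9.48% of all genes had one and 0.0227% passed. Ndufab1 (0.52), Ndufs4 (0.69), an accessory subunit needed for a stable N module, and Ndufaf7 (0.39) followed in HFCD+FMD against HFCD. Without HFCD replicate 5 the smallest edgeR adjusted p of the members in HFCD+FMD against HFCD was 0.96. The assembly factors then ran between −0.08 and 1.14, and the distal arm subunits, Ndufab1 among them, between 0.13 and 0.99. The 5 members whose HFCD+FMD hearts all lay above the HFCD hearts were Ndufaf1, Ndufaf4, Ndufa4, Ndufab1 and Ndufb4, against 2.59% of all genes. As CPM hold no set term, these separations, and that of Ndufaf4 against CNTR, cannot be told apart from a difference between library sets. Values ran between −0.24 for Ndufa1 and 0.70 for Ndufaf8, a partner of Ndufaf5. Ndufaf8 was low, at 2.86 to 9.99 CPM (median 6.14) in HFCD+FMD hearts and 0.714 to 8.55 CPM (median 6.88) in HFCD hearts.

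Core subunits in HFCD+FMD against HFCD hearts were at 0.40 for Ndufs7, 0.35 for Ndufs8, 0.34 for Ndufv2, 0.31 for Ndufs3, 0.21 for Ndufv1 and 0.10 for Ndufs1, with 0.50 for Ndufa4 and 0.27 for Ndufa4l2. Against CNTR the median of the members was −0.15 and 33 of 46 were below 0 (49.6% of all genes), but the sign depended on the libraries and the fit. The median was 0.071 without CNTR replicate 2 and, with all libraries kept, 0.045 with voom, 0.071 with age as a covariate and 0.067 with the length trend removed. The values against CNTR ran between −0.57 for Ndufa1 and the 0.51 of Ndufaf4. Core subunits were at −0.35 for Ndufv1, −0.33 for Ndufs3, −0.30 for Ndufs7, −0.23 for Ndufs8, 0.09 for Ndufs1 and 0.004 for Ndufv2. Ndufa4 was at −0.25 and Ndufa4l2 at −0.01. Of the marker lists only adipocyte markers had calls against CNTR, 2 of 8 lower (median −4.27; 0.0227% of all genes), and 3 of 8 without CNTR replicate 2. Their sums were 572 to 672 CPM in HFCD+FMD and 461 to 1022 CPM in CNTR hearts. Atrial markers had a median of −6.01, with sums of 9.96 to 25.5 and 9.43 to 124.5 CPM, and ventricular markers a median of 0.05. The part of these markers in the members' values was not tested.

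The difference between tissues was tested itself, as the adipose change minus the heart change, in a joint fit of all 27 libraries that treats the tissues as independent. For HFCD against CNTR, 4 of 46 members differed, against 17% of the 12606 genes tested, so members differed no more often than genes at large. Ndufa10 (−0.87 ± 0.26 SE, edgeR adjusted p = 0.027), Ndufs1 (−0.77 ± 0.25 SE, edgeR adjusted p = 0.0396) and Ndufaf4 (−0.68 ± 0.21 SE, edgeR adjusted p = 0.0312) had the lower change in adipose tissue, against 7.61% of all genes. Ndufa4l2 had the higher change in adipose tissue (1.14 ± 0.33 SE, edgeR adjusted p = 0.0208), against 9.42% of all genes. Ndufs6, with the lowest adipose value, did not pass (−1.11 ± 0.43 SE, edgeR adjusted p = 0.0728). None of the 4 was called in every fit that left out a library. Without adipose HFCD replicate 2, adipose HFCD replicate 3 or heart CNTR replicate 3, 2 members differed (11.9%, 15.4% and 14.3% of all genes), and without heart CNTR replicate 5, 1 did (13.5%). Without adipose CNTR replicate 1 no member differed (9.15% of all genes did), and without heart CNTR replicate 2, 16 did, all with the lower change in adipose tissue (8.18% of all genes). For HFCD+FMD against HFCD no member differed between tissues (0.214% of all genes did).

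**Figure D5:**
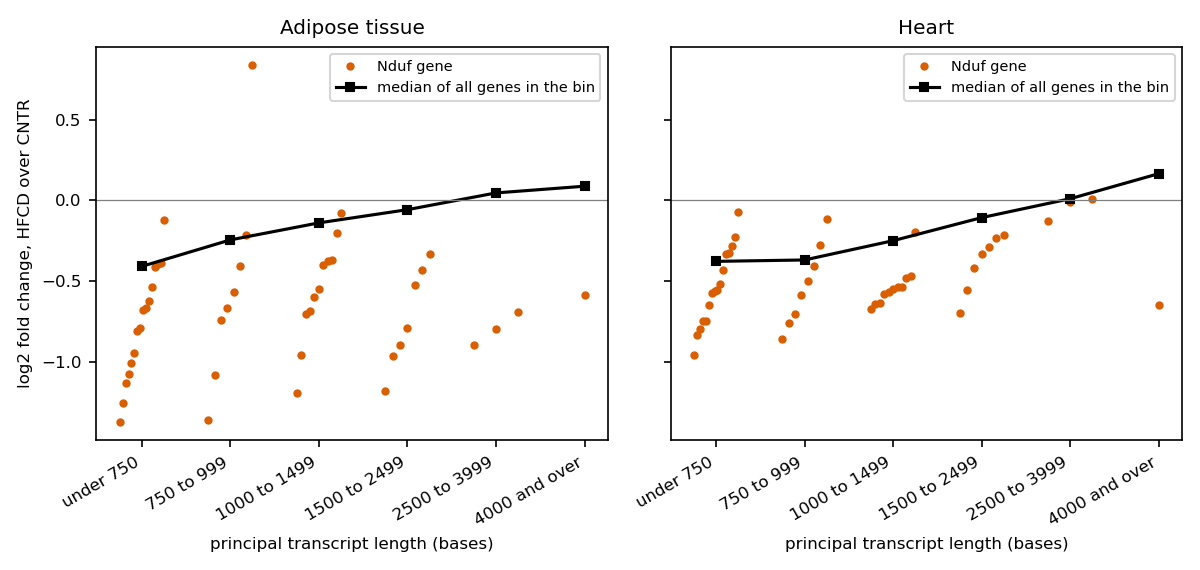
Log2 fold change of HFCD over CNTR by bin of transcript length (x axis, bases): points are the members, side by side in order of value within a bin, and the black line joins the medians of all genes. The black line climbs with length in both tissues, between −0.41 and 0.09 in adipose tissue and between −0.38 and 0.16 in heart, and most members lie below it. All libraries were kept, heart CNTR replicate 2 and adipose CNTR replicate 1 among them.

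With all libraries kept, transcript length moved with the HFCD against CNTR contrast over the whole genome. In adipose tissue the median over all genes was −0.41 for transcripts under 750 bases and 0.09 for those of 4000 bases and over. The members' medians were −0.74 under 750 bases (16 members), −0.62 between 750 and 999 (8), −0.55 between 1000 and 1499 (11) and −0.79 between 1500 and 2499 bases (7). Across the 46 members the log2 fold change showed little relation to log2 length in adipose tissue (Pearson r 0.04, Spearman rho 0.07). In heart r was 0.35 and rho 0.28 for HFCD against CNTR, and 0.51 and 0.46 for HFCD+FMD against CNTR. These are descriptions, since genes share libraries. With the trend over length removed from each library, 25 members fell in adipose tissue and Ndufa4l2 rose, against 14.6% of all genes each way. The median of the members was −0.45, against −0.02 over all genes. In heart the medians over all genes were −0.38 and 0.16 at the same ends, and the members' medians were −0.56 under 750 bases and −0.33 between 1500 and 2499 bases. Heart CNTR replicate 2 by itself deviated by 0.76 and −0.41 at these ends. The other CNTR hearts ran over −0.06 to 0.19 and −0.12 to 0.03, and HFCD hearts over −0.25 to 0.22 and −0.01 to 0.12. Medians by length and correlations were not computed without this library, nor without adipose CNTR replicate 1. The 3 members of 2500 to 3999 bases had a median of −0.01 in heart and −0.79 in adipose tissue, and these 3 were Ndufs1, Ndufab1 and Ndufaf4.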

How the data were processed

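RNA was extracted with RNeasy columns and libraries were made with KAPA RNA Hyper and RiboErase chemistry, per the labels' protocols. The submitters' processing notes name edgeR, limma, R 3.5.3, STAR 2.5.3 and the build mm10, and the read counter and annotation are not given in the sources used here. For each tissue the authors deposited raw counts (whole numbers) and log2 values with 0.5 added to each count. The deposited adipose log2 values differed from the counts by 1 constant per library, and those of heart had also lost a term per gene that 3 sets of libraries have in common (to within 9.8e-09). HFCD replicates 1 to 4 with CNTR replicates 2, 3 and 5 form set A. Set B is HFCD+FMD replicate 1 with CNTR replicates 4 and 6, and set C is HFCD replicate 5 with HFCD+FMD replicates 2, 3 and 5.

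Of 34 labelled samples, 27 had columns and were used, 7 were not analysed here, and 0 columns of unlabelled samples were left out. Depth was 15604982 to 47859170 counts per library. Counts were fitted with edgeR 4.0.16 in R 4.3.3, per tissue over the 3 diets: TMM scaling, filterByExpr (15112 adipose and 13230 heart genes kept), robust quasi-likelihood F-test, two-sided, Benjamini-Hochberg at 0.05 over all genes tested. The heart fit held the library set as a factor. The difference between tissues was the interaction in a joint fit. SE is the absolute log2 fold change over the square root of F. Mean levels carry their SD. Scripts were tested on simulated data for HFCD against CNTR. Of 100 genes changed 2-fold the fit called 53 in adipose tissue and 76 in heart. Of 100 changed 1.5-fold it called 4 and 15, so a member that was not called may still have changed. Transcript lengths are those of principal transcripts in GENCODE M21, and near-identical copies were searched with blastn 2.17.0. DESeq2 1.42.0 and voom of limma 3.58.1 served as alternatives, with RLE scaling, no low-count filter, mitochondrially encoded genes left out of the library size, age as a covariate, no set factor and each library left out. Fits within a library set and the removal of the trend over length (lowess, span 0.3) were added after seeing the data, as were the levels, modules and lists without libraries that stood apart.

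Named genes in each comparison were up to 12 members with the smallest p among those called, or the 5 smallest where none was, the highest and lowest log2 fold change, any member called against the median, the nuclear core subunits, Ndufa4 and Ndufa4l2. Results of 1 member by itself are not reported here; it stays in the counts, sums and medians. Ndufb1 was not analysed here. The members, modules and gene lists were chosen with earlier results of these data known.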

Additional observations from a re-analysis of the deposited data

Results flagged for a closer look

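In each of 113 groups of 4 to 6 libraries, the highest or lowest library was set against Dixon's 95% critical value. A group was a named member, the member sum, the mitochondrially encoded subunit sum or the mitochondrially encoded share in 1 tissue and diet. Adipose CNTR, with 3 libraries, was too small for this. The value was exceeded in 6 groups, where chance gives about 1 in 20. Of these, 5 had heart CNTR replicate 2 as their highest library: Ndufa1 at 171.4 CPM (next highest 93.39 CPM), Ndufa4l2 at 22.17 CPM (next 11.74 CPM), Ndufaf8 at 18.12 CPM (next 10.09 CPM), Ndufs7 at 389.5 CPM (next 208.8 CPM) and Ndufs8 at 269.2 CPM (next 153.8 CPM). The other was Ndufs7 in heart HFCD replicate 3, the lowest of its diet at 98.55 CPM (next lowest 143.4 CPM), the library with the highest share of mitochondrially encoded counts.

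In HFCD against CNTR, 4 of 46 members passed the edgeR test of the difference between tissues, no more often than the 17% of all genes. Of all genes 7.61% had the lower and 9.42% the higher change in adipose tissue. None of the 4 members was called in every fit that left out a library. They had an adipose change minus heart change of −0.7678 for Ndufs1, −0.867 for Ndufa10, −0.6781 for Ndufaf4 and 1.144 for Ndufa4l2 on the log2 scale. The heart log2 fold changes of these 4 were −0.01 for Ndufs1, −0.29 for Ndufa10, 0.01 for Ndufaf4 and −0.28 for Ndufa4l2, and none of them passed.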

How the results depend on the processing

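No paired analysis was possible because the labels give no replicate number that ties libraries of different diets; the numbers follow the order of deposit. The members called in adipose HFCD against CNTR ranged over 15 to 33 when each library was left out in turn (32 with all). In these fits 15.5% to 30.5% of all genes were called (30% with all), and the members' median ranged over −0.80 to −0.45. In HFCD+FMD against HFCD adipose tissue, 0 were called in each such fit (0.0331% to 0.53% of all genes), with medians of 0.23 to 0.34. DESeq2, however, called 4 members (2% of all genes) and voom 5 (3.12% of all genes). In HFCD+FMD against CNTR the range was 1 to 22 (16 with all), with medians of −0.52 to −0.13. The share of all genes called ran over 4.38% to 23.1% (19.7% with all). With the length trend removed, 10 members were called (19.4% of all genes).

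In heart, leaving out a library gave 0 calls against CNTR in both comparisons (0% to 1.64% of all genes). In HFCD+FMD against HFCD it gave 0 to 1 (0% to 2.78% of all genes). The medians ranged over −0.63 to −0.17 for HFCD against CNTR, where voom gave −0.19 and the removed length trend −0.17, over 0.21 to 0.59 for HFCD+FMD against HFCD (0.19 with voom, 0.23 with the length trend removed, against 0.38) and over −0.42 to 0.07 for HFCD+FMD against CNTR (0.045 with voom, 0.071 with age, 0.067 with the length trend removed, 0.053 within set B and −0.28 with no set factor, against −0.15). Members that differed between tissues in HFCD against CNTR were 0 to 16 without a library (9.15% and 17.1% of all genes in those 2 fits). With no set factor 7 members differed (22% of all genes), against 4 in the main fit (17% of all genes). In HFCD+FMD against HFCD the count stayed at 0. The causes were not tested.

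Some named genes near 0 changed sign. In adipose HFCD+FMD against HFCD, Ndufb3 was 0.020 with age as a covariate (−0.11 to 0.093 without a library) and Ndufa4l2 ran over −0.16 to 0.13 without a library. Ndufv1 against CNTR ran over −0.35 to 0.0066. In heart HFCD against CNTR, Ndufa4l2 was 0.032 with voom and 0.074 with the length trend removed (−0.39 to 0.035 without a library), Ndufaf4 was −0.031 with the length trend removed and −0.069 with no set factor (−0.078 to 0.084), and Ndufs1 was 0.017 with voom, 0.024 with the length trend removed and 0.059 within set A (−0.091 to 0.059). In heart HFCD+FMD against HFCD, Ndufa1 was 0.067 with age (−0.59 to 0.33), Ndufa4l2 was −0.23 with no set factor, Ndufv1 was −0.038 with voom, and Ndufs1 ran over −0.19 to 0.28. In heart HFCD+FMD against CNTR, Ndufa4 was 0.024 with the length trend removed, and Ndufa4l2 was 0.14 with voom, 0.24 with age, 0.20 with the length trend removed and 0.15 within set B (−0.21 to 0.16). Within set B, Ndufaf1 was −0.0029, Ndufs1 −0.13, Ndufs7 0.00053, Ndufs8 0.097 and Ndufv2 −0.039. Ndufs8 was 0.037 with age. Ndufv2 was −0.00092 with RLE scaling, −0.00086 with DESeq2 and −0.071 with no set factor (−0.061 to 0.14).

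Precision is limited by 3 CNTR adipose libraries, by a heart design in which HFCD+FMD is tied to the other diets through 1 library of each kind, and by low counts for Ndufs5, Ndufaf5, Ndufaf6 and Ndufaf8 in adipose tissue. Counts of Ndufs5 and Ndufaf8 were also low in heart, with Ndufaf8 at 0.714 CPM in HFCD replicate 3. Of the alternatives other than leaving out a library, 26 of the 32 members called in adipose HFCD against CNTR were called in every one.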
